A study of Mus musculus with 12 samples.

Results

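The genes described here are 41 DNA repair and checkpoint genes, measured in alveolar macrophages of mice that had breathed ozone or filtered air. They were taken by symbol from a list of repair pathways, with no threshold on a measured value but with earlier results of these data known, and 41 of 41 were found among the 55291 gene symbols of the deposited table. The mice were female C57BL/6NJ animals of 8 to 11 weeks. The ozone group breathed 0.8 ppm ozone, an oxidant gas, during 4 h on each of 4 days in a row, and the filtered-air group breathed filtered air on the same schedule. In both groups the lungs were taken 3 days after exposure ended, and alveolar macrophages, the phagocytes that live in the airspaces, were isolated by flow sorting. Each group held 6 mice, each mouse gave 1 library, and the sort was done in 2 batches with 3 mice of each group in each.

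Cells repair DNA by several routes that differ in the lesion they take on and in when they work. Homologous recombination copies the sister chromatid to mend a broken strand pair, and the Fanconi anaemia pathway unhooks cross-linked strands at stalled replication forks, so both mainly serve cells that are copying their DNA. Base excision repair instead removes single damaged bases, among them the oxidized guanine that reactive oxygen leaves behind, and it works in resting cells too. Nucleotide excision repair cuts out bulky lesions, mismatch repair corrects copying errors, and the checkpoint kinases hold the cell cycle while repair is done. The comparison set here is between cycle-linked repair and oxidative base repair. Cycle-linked repair is the name used here for the 18 genes of homologous recombination and the Fanconi pathway. Oxidative base repair is the 10 base excision members without Ung, a choice made with earlier results of these data known.

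The deposited values are variance-stabilized, batch-corrected and on a log2 scale, and each gene is centred on its filtered-air mean. A value is therefore a difference from that mean, abundance is lost, and no gene can be called more abundant than another. Differences of genes with few reads are compressed on this scale, so sizes are given as log2-scale differences and not as fold changes. In bulk RNA of sorted cells, more cells of a type and more RNA per cell cannot be told apart. Alveolar macrophage markers were detected in every mouse (10 of 10), but so were 43 of 46 markers of other cell types. Without abundance, detection does not tell how much RNA came from each. The exceptions were Ly6g, a neutrophil marker without reads in 11 of 12 mice, and the globins Hba-a2 and Hbb-bt, each without reads in 2. A mouse counted as without reads only where it shared the lowest value with another mouse of its batch. A lone mouse without reads in its batch would be missed. Between 19475 and 20438 genes per mouse lay above the value that marks no reads. Filtered-air mouse 4 stood apart: its mean was above the group median in 11 of 11 lists of other cell types and the highest of the group in 9, and its RNA integrity number of 8.9 was the lowest. Ozone mouse 4 was also above its group median in 11 of 11. Of the other-cell markers 1 differed between the groups, Epcam of epithelium at -0.55 (adjusted p = 0.00620, limma with Benjamini-Hochberg adjustment). In 6 lists of other cells all markers had the same sign. The 5 interstitial macrophage markers were above 0 (median 0.22), with list means from -0.28 to 0.30 in filtered air and from 0.019 to 0.41 after ozone. The 4 B cell markers were below 0 (median -0.22, 3 of them under 0.05 before adjustment), with list means from -0.23 to 0.34 in filtered air and from -0.29 to -0.15 after ozone. The 4 erythroid markers were above 0 (median 0.17, list means -0.11 to 0.20 and -0.030 to 0.42). The NK cell, dendritic cell and endothelium markers were below 0, with medians of -0.078, -0.061 and -0.074. Of these 6 lists 0 markers were called, and the part of other cells in the results was not tested. Of the alveolar macrophage markers, Car4 was higher after ozone by 0.32 (adjusted p = 0.0460, limma), and Krt79 (-0.35, 0.0177) and Ear1 (-0.28, 0.0358) were lower. Of these 10 markers 7 were below 0 and 3 above, with a median of -0.062 and differences from -0.35 to 0.58.

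Ozone-exposed macrophages had higher levels of 10 of the 41 genes and a lower level of 1. In none of the 41 genes did mice of a batch share a lowest value. All 41 were among the 19633 genes tested with limma, with flow-sort batch as a covariate and an adjusted p below 0.05 as the threshold. Across all genes tested, 4.25% were called, 2.41% higher and 1.84% lower. The 10 were Clspn, Brca1, Fanci, Rad54l, Fancm, Ung, Brip1, Rad51ap1, Bard1 and Chek2, and 7 of them belong to cycle-linked repair. The gene called lower was Ercc1. With quantile normalization 3 of these 11 calls were kept, Rad54l, Fanci and Fancm, and 178 genes of all tested were called instead of 834. The adjusted p in limma was then 0.0709 for Ung, 0.0979 for Brca1, 0.102 for Clspn, 0.139 for Rad51ap1, 0.158 for Chek2, 0.166 for Bard1 and 0.191 for Brip1. Of the 10 oxidative base repair genes 0 were called, while 4 reached 0.05 before adjustment. With Ung included, 1 of the 11 base excision genes was called and 5 reached 0.05 before adjustment. The median difference of those 11 was 0.085. Limma called Parp1 when mice were weighted by their quality (array weights), and Neil3 and Parp1 without filtered-air mouse 6. Before adjustment, 23 of the 41 genes were higher and 2 lower at that threshold, against 8.43% and 8.29% of all genes tested. The 6 ozone values lay entirely above the 6 filtered-air values in 6 members and entirely below them in 0. Such separation was found in 3.53% of all genes tested, 1.96% higher and 1.58% lower. The median difference was 0.16 over the 41 genes, 0.26 over cycle-linked repair and 0.062 over oxidative base repair, against -0.0033 over all genes tested. A difference above 0 was found in 33 of 41 members, in 18 of 18 cycle-linked genes and in 48% of all genes tested.

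**Figure D1:**
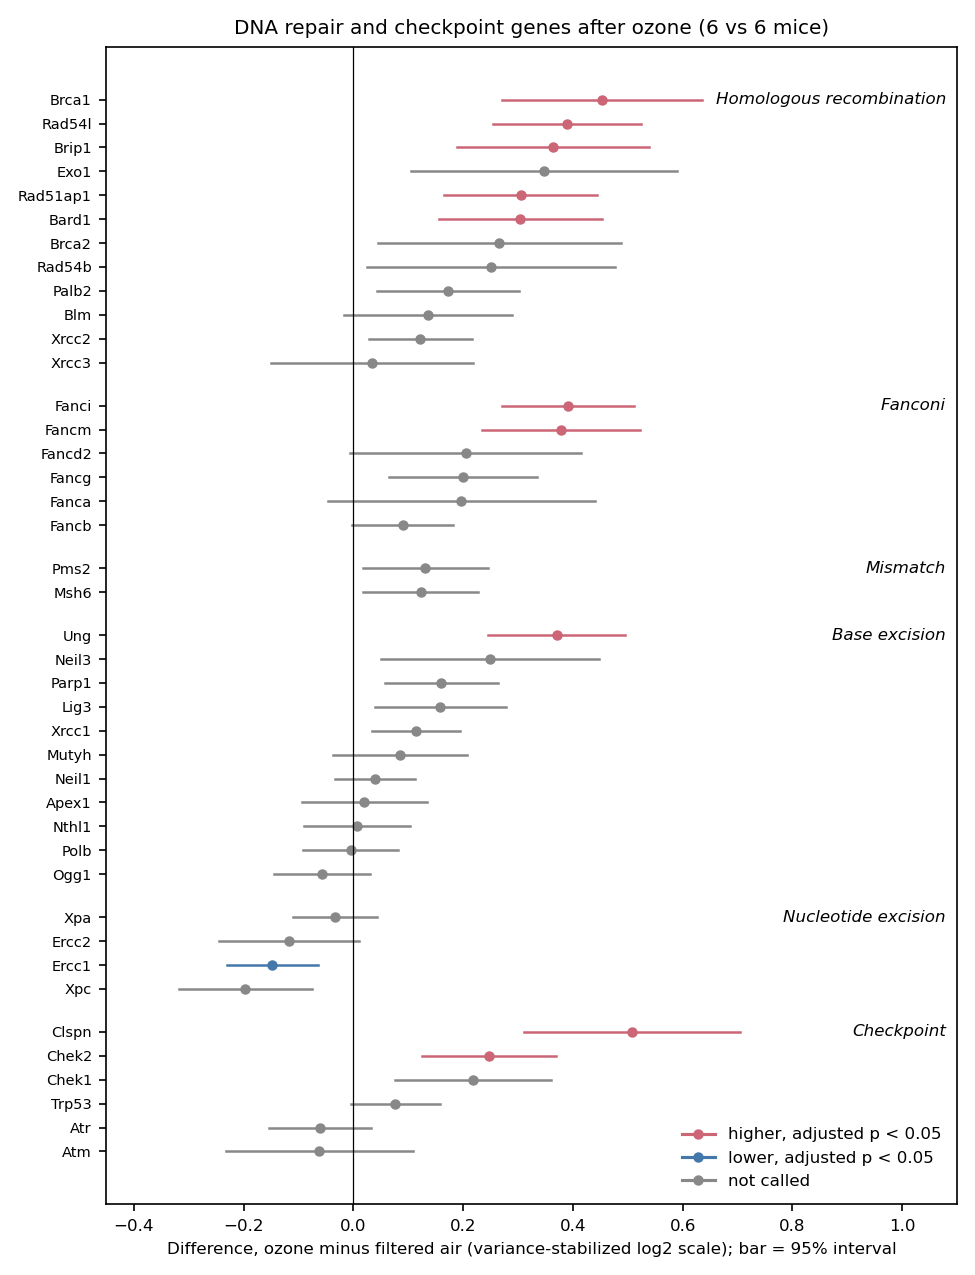
Each point is the ozone minus filtered-air difference of 1 gene on the variance-stabilized log2 scale (x axis), with its 95% interval from limma, for the 41 genes grouped by pathway (y axis; 6 mice per group). The 12 homologous recombination and 6 Fanconi genes all lie to the right of 0, the 4 nucleotide excision genes all lie to the left, and 6 of the 10 oxidative base repair genes have an interval that spans 0.

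Homologous recombination gave 5 of the 10 calls. Brca1 encodes the breast cancer protein that directs broken ends into recombination. Its values in filtered-air mice ran from -0.32 over a median of -0.018 to 0.28, and in ozone mice from 0.35 over 0.42 to 0.65. No ozone mouse fell inside the filtered-air range. The difference was 0.45 ± 0.085 (SE, n = 6 per group, adjusted p = 0.00805 in limma with Benjamini-Hochberg adjustment). Bard1, the obligate partner of Brca1 in its ubiquitin ligase, was also separate, with -0.26, 0.024 and 0.16 as the lowest, median and highest value in filtered air and 0.19, 0.27 and 0.44 after ozone. Bard1 differed by 0.30 ± 0.069 (SE, adjusted p = 0.0226, limma). That call was lost when filtered-air mouse 1 (0.30, adjusted p = 0.0574 in limma), ozone mouse 3 (0.27, 0.0597) or ozone mouse 5 (0.27, 0.0588) was left out.

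Brip1 is a helicase that binds Brca1. It lay between -0.22 and 0.35 in filtered air, with a median of -0.020, and between 0.20 and 0.47 after ozone, with a median of 0.40. In this gene 4 of 6 ozone mice were above every filtered-air mouse, and filtered-air mouse 6 reached 0.35. The difference was 0.36 ± 0.082 (SE, adjusted p = 0.0212, limma), and it lost the call without ozone mouse 3 (0.34, adjusted p = 0.0554), ozone mouse 4 (0.34, 0.0520) or ozone mouse 5 (0.35, 0.0515). Rad51ap1 helps the recombinase pair the broken strand with its template. Its filtered-air values were -0.13, -0.031 and 0.26 (lowest, median, highest) and its ozone values 0.22, 0.28 and 0.41. Again 4 of 6 ozone mice were above all filtered-air mice, and the difference was 0.30 ± 0.065 (SE, adjusted p = 0.0157, limma). Rad54l, a motor protein that remodels the recombination intermediate, ran from -0.16 over -0.022 to 0.23 in filtered air and from 0.21 over 0.40 to 0.48 after ozone. Only 1 ozone mouse lay within the filtered-air range, and the difference of 0.39 ± 0.063 (SE) had an adjusted p of 0.00357 in limma.

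The other 7 homologous recombination genes were not called. Exo1, a nuclease that trims broken ends, had the largest difference among them at 0.35 (95% interval 0.11 to 0.59, adjusted p = 0.111, limma). Brca2, which loads the recombinase, stood at 0.27 (adjusted p = 0.192, limma), and Rad54b, a relative of Rad54l, at 0.25 (0.240). Palb2, the bridge between Brca1 and Brca2, stood at 0.17 (0.141), Blm, the Bloom helicase, at 0.14 (0.371), and Xrcc2, a relative of the recombinase, at 0.12 (0.152). Another such relative, Xrcc3, differed by 0.034, with an interval of -0.15 to 0.22. The groups overlapped in these 7 genes, and filtered-air mouse 6 was the highest of its group in 15 of the 18 cycle-linked genes. Without filtered-air mouse 6, Blm stood at 0.21 (adjusted p = 0.00839, limma) and Exo1 at 0.42 (0.0477), and both were called. Without filtered-air mouse 3, Brca2 stood at 0.35 (adjusted p = 0.0464, limma).

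Among the Fanconi genes, Fanci and Fancm rose after ozone. Fanci forms the clamp that is ubiquitinated at a cross-link. In filtered air it ran from -0.058 over -0.042 to 0.20, where mouse 6 was the 1 high value, and after ozone from 0.23 over 0.40 to 0.52. All 6 ozone mice were above all filtered-air mice, and the difference was 0.39 ± 0.056 (SE, adjusted p = 0.00181, limma), the smallest p among the 41 genes. Fancm, the motor that recognizes a stalled fork, lay at -0.20, 0.019 and 0.16 in filtered air (lowest, median, highest) and at 0.21, 0.38 and 0.53 after ozone. These groups did not overlap either, and the difference was 0.38 ± 0.067 (SE, adjusted p = 0.00597, limma).

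The other Fanconi members were not called. Fancd2, the partner of Fanci in the clamp, stood at 0.20 (adjusted p = 0.314, limma), with filtered-air mouse 6 at 0.43 above every ozone mouse. Fancg and Fanca, subunits of the ligase core, stood at 0.20 each (0.0963 and 0.428), and Fancb, a further core subunit, at 0.090 (0.313). Without filtered-air mouse 6, Fancd2 stood at 0.30 (adjusted p = 0.0260, limma) and Fancg at 0.24 (0.0287), and both were called. The exons of Fanci overlap those of Polg on the opposite strand over 16.0% of their bases, and those of Rad54l overlap Lrrc41 over 15.4%. Whether the counting used the strand is not given in the sources used here. Polg and Lrrc41 themselves differed by 0.033 and -0.037, and neither was called. Rad54b, which was not called, shares 35.8% of its exon bases with Fsbp on the same strand. Fsbp stood at 0.11 (adjusted p = 0.281, limma).

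**Figure D2:**
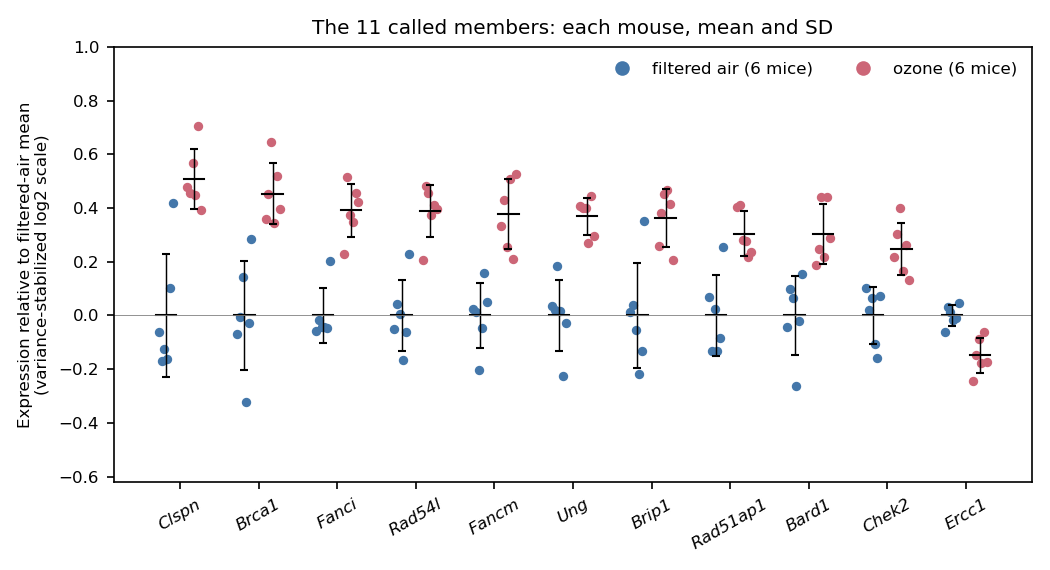
Each point is 1 mouse (filtered air, 6; ozone, 6) for the 11 genes with an adjusted p below 0.05, on the variance-stabilized log2 scale relative to the filtered-air mean (y axis); horizontal lines are means and whiskers SDs. Brca1, Fanci, Fancm, Ung, Bard1 and Chek2 show no overlap between the groups, and the single high filtered-air point in Clspn (0.42), Brip1 (0.35), Rad51ap1 (0.26) and Rad54l (0.23) is mouse 6.

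The checkpoint gave 2 calls and the largest difference of the 41 genes. Clspn encodes claspin, the adaptor through which Atr activates Chek1 at a stalled fork. In filtered air it ran from -0.17 over -0.095 to 0.42 and after ozone from 0.39 over 0.47 to 0.70. Filtered-air mouse 6 held the 0.42, and 5 of 6 ozone mice lay above it. The difference was 0.51 ± 0.092 (SE, adjusted p = 0.00645, limma). Chek2, the kinase that Atm activates at broken ends, had filtered-air values of -0.16, 0.044 and 0.10 (lowest, median, highest) and ozone values of 0.13, 0.24 and 0.40, which did not overlap. Chek2 differed by 0.25 ± 0.057 (SE, adjusted p = 0.0243, limma). Left out, each of 4 mice ended that call: filtered-air mouse 4 (0.22, adjusted p = 0.0521 in limma), ozone mouse 2 (0.23, 0.0581), ozone mouse 3 (0.21, 0.0576) or ozone mouse 5 (0.24, 0.0555).

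The kinases that start both checkpoint branches were not among the calls. Atm differed by -0.062 (95% interval -0.23 to 0.11) and Atr by -0.061 (-0.15 to 0.031). Chek1, the effector kinase of the Atr branch, stood at 0.22 (adjusted p = 0.0876, limma) and was called without filtered-air mouse 6 (0.26, adjusted p = 0.0271), without ozone mouse 6 (0.25, 0.0445) or with array weights (0.23, 0.0470). Trp53, the gene of the p53 transcription factor, stood at 0.076 (adjusted p = 0.336, limma). Of 16 listed p53 targets 0 were called, with 1 higher and 1 lower at an unadjusted p under 0.05. Ccng1, a p53-induced cyclin, stood at 0.16 (adjusted p = 0.0643, limma). It was called without ozone mouse 6 (0.19, adjusted p = 0.0230), with array weights (0.17, 0.0325) and without the batch covariate (0.16, 0.0391). Cdkn1a, the cell cycle inhibitor p21, stood at -0.22 (adjusted p = 0.173, limma). The median of the p53 targets was 0.052.

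In base excision repair, 1 of 11 members was called, Ung. It removes uracil from DNA, including uracil built in during replication. Its filtered-air values ran from -0.22 over 0.018 to 0.18 and its ozone values from 0.27 over 0.40 to 0.45. The groups did not overlap, the spread among ozone mice was small (SD 0.069), and the difference was 0.37 ± 0.058 (SE, n = 6 per group, adjusted p = 0.00299, limma).

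The first steps of oxidative base repair are the glycosylases, which remove the base, and the endonuclease that nicks the strand, and all of these genes but Neil3 had differences between -0.057 and 0.085. Ogg1, which cuts out oxidized guanine, lay at -0.044, 0.0011 and 0.050 in filtered air (lowest, median, highest) and at -0.15, -0.079 and 0.045 after ozone. In 4 of 6 ozone mice Ogg1 was below every filtered-air mouse, but the other two lay inside that range, and the difference was -0.057 (95% interval -0.14 to 0.030, adjusted p = 0.547, limma). Mutyh removes adenine paired with oxidized guanine. It ran from -0.064 over -0.018 to 0.14 in filtered air and from -0.083 over 0.063 to 0.26 after ozone, a difference of 0.085 (-0.038 to 0.21). Nthl1, which removes oxidized pyrimidines, ran from -0.12 over -0.0033 to 0.13 and from -0.045 over -0.024 to 0.12, a difference of 0.0069 (-0.090 to 0.10). The ozone range of Nthl1 lay within its filtered-air range, and that of Mutyh extended past it on both sides. Neil1, a glycosylase for oxidized pyrimidines and opened purines, was narrow in filtered air, at -0.024, 0.0033 and 0.017, and lay at -0.011, 0.032 and 0.11 after ozone, a difference of 0.039 (-0.034 to 0.11). Apex1, the endonuclease that nicks the strand once the base is gone, ran from -0.12 over -0.0089 to 0.11 and from -0.16 over 0.050 to 0.11. Its difference was 0.020 (-0.094 to 0.13), and 61.7% of its exon bases overlap Pip4p1 on the other strand, which stood at 0.045. For these 5 genes the upper bounds of the intervals reach 0.21 at most, and a smaller difference in either direction is within them. Intervals of genes called higher are not all apart from these, as that of Chek2 (0.12 to 0.37) overlaps that of Mutyh.

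Neil3 belongs to the same glycosylase family as Neil1 and also acts on cross-links between strands at replication forks. It had the widest filtered-air spread of the oxidative list, from -0.29 over 0.00028 to 0.38, and ran from 0.052 over 0.30 to 0.38 after ozone. Filtered-air mouse 6 held the 0.38, and 0 of 6 ozone mice lay above it. The difference was 0.25 (95% interval 0.050 to 0.45, adjusted p = 0.171, limma) and became 0.33 (adjusted p = 0.0161, limma) without filtered-air mouse 6, which is a call.

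The remaining 4 genes sense, fill and seal the gap. Parp1, which senses the nick and marks it with poly(ADP-ribose), ran from -0.058 over -0.027 to 0.16 in filtered air and from 0.021 over 0.17 to 0.25 after ozone. Its difference was 0.16 (95% interval 0.057 to 0.26, adjusted p = 0.0826, limma), and it was called without filtered-air mouse 6 (0.19, adjusted p = 0.0238) or without ozone mouse 6 (0.19, 0.0310). The scaffold of the complex, Xrcc1, lay at -0.068, -0.0043 and 0.10 and at 0.049, 0.13 and 0.15, and 4 of 6 ozone mice were above all filtered-air mice. Xrcc1 differed by 0.11 (0.034 to 0.19, adjusted p = 0.114, limma). Lig3, the ligase that Xrcc1 carries, ran from -0.092 over 0.0056 to 0.062 and from -0.022 over 0.22 to 0.27, and differed by 0.16 (0.039 to 0.28, adjusted p = 0.146, limma). Lig3 shares 25.1% of its exon bases with Rffl on the opposite strand, which fell by 0.21 (adjusted p = 0.0356, limma). Polb, the polymerase that fills the gap, lay at -0.10, 0.00031 and 0.11 and at -0.069, -0.0088 and 0.052, a difference of -0.0049 (-0.092 to 0.082). None of these 4 genes was called with all 12 mice at equal weight. With array weights, Parp1 was (0.17, adjusted p = 0.0384, limma).

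**Figure D3:**
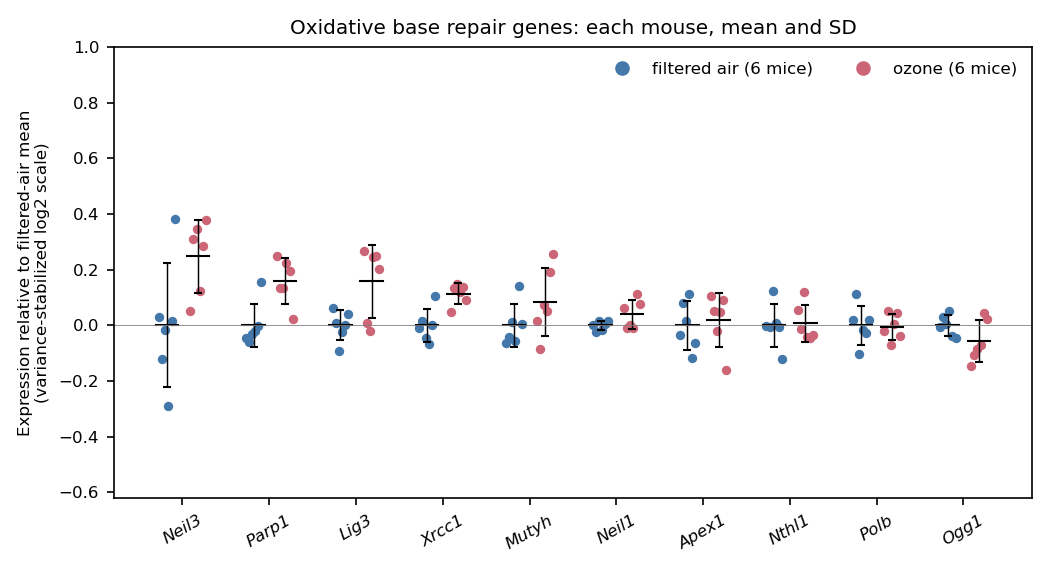
Each point is 1 mouse (filtered air, 6; ozone, 6) for the 10 oxidative base repair genes, on the variance-stabilized log2 scale relative to the filtered-air mean (y axis), with means and SDs; the y axis spans the same range as the plot of the 11 called genes. The groups overlap in all 10 genes, and Neil3, Parp1, Lig3 and Xrcc1 have the highest differences, between 0.11 and 0.25.

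Mismatch repair had no call. Msh6, a subunit of the sensor for single mismatches, and Pms2, part of the complex that nicks the new strand, stood at 0.12 (adjusted p = 0.206, limma) and 0.13 (0.220).

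Nucleotide excision repair was the pathway whose 4 members all had differences below 0. Ercc1 is the partner of the Ercc4 nuclease, which cuts the damaged strand beside the lesion. It lay at -0.062, 0.0022 and 0.045 in filtered air (lowest, median, highest) and at -0.24, -0.16 and -0.062 after ozone. In 5 of 6 ozone mice Ercc1 was below every filtered-air mouse, and the difference was -0.15 ± 0.039 (SE, adjusted p = 0.0452, limma). This call lies at the threshold. It was lost with all 12 mice under array weights (adjusted p = 0.0512, limma), the RNA integrity covariate (0.0512), a variance trend (0.0688) and quantile normalization (0.153). It was also lost in 11 of 12 single-mouse omissions, with differences from -0.16 to -0.13 and adjusted p values up to 0.0980 in limma, and it was kept without ozone mouse 5 (-0.17, 0.0363). Xpc, the sensor of distorted helices, stood at -0.20 (adjusted p = 0.0698, limma) and was called without ozone mouse 2 (-0.23, 0.0399). Ercc2, a helicase that opens the lesion, stood at -0.12 (0.353) and Xpa, which checks the damaged strand, at -0.034 (0.718). The 10 other nucleotide excision genes on the list had a median of 0.0054, and 0 were called. The smallest p among them was that of Ercc5, the nuclease that makes the other cut, at -0.091 (adjusted p = 0.285, limma). The exons of Ercc1 overlap Cd3eap on the opposite strand over 3.41% of their bases.

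Filtered-air mouse 6 and filtered-air mouse 4 set the spread of the filtered-air group. Mouse 6 was the highest filtered-air mouse in 25 of the 41 members, and mouse 4 the lowest in 13, among them 10 of the 18 cycle-linked genes. The mean over the cycle-linked genes was 0.24 in mouse 6, -0.16 in mouse 4 and between -0.053 and 0.0060 in the other four, against 0.20 to 0.30 in the ozone mice. On the oxidative list the means ran from -0.032 to 0.050 in filtered air and from 0.048 to 0.13 after ozone. With filtered-air mouse 6 left out, 17 members were called higher instead of 10 and 11 cycle-linked genes instead of 7, and with filtered-air mouse 4 and ozone mouse 4 left out together, 7 were. Of all genes tested, 747 were called in the first case and 534 in the second, against 834 with all mice. The genes lost in that second case were Brip1 (0.28, adjusted p = 0.10, limma), Rad51ap1 (0.28, 0.0678) and Chek2 (0.24, 0.0668) on the higher side and Ercc1 (-0.15, 0.137) on the lower.

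Proliferation markers moved with the cycle-linked genes. All 12 on the list, which span DNA synthesis and mitosis, were called higher after ozone, and their median difference was 0.49. Tyms, which makes thymidylate for DNA synthesis, rose by 0.42 (adjusted p = 0.000710, limma), and Mcm2 of the replicative helicase rose by 0.43 (0.000737). Cdk1, the mitotic kinase, rose by 0.48 (0.00173), Birc5, survivin, by 0.46 (0.00181) and Rrm2, a ribonucleotide reductase subunit, by 0.50 (0.00181). Mouse 6 was the highest filtered-air mouse in 11 of these 12 markers and mouse 4 the lowest in 9. The mean of the 12 was 0.26 in filtered-air mouse 6, -0.25 in filtered-air mouse 4 and 0.37 to 0.63 in the ozone mice. With that mean as a covariate, 0 of the 41 members were called, the cycle-linked median was -0.10 and the oxidative median -0.0095. In that fit the median SE of the members was 0.122 instead of 0.058 and 16 genes of all tested were called. The marker mean itself does not overlap between the groups. Whether the cycle-linked differences come with the number of cycling cells was not tested.

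**Figure D4:**
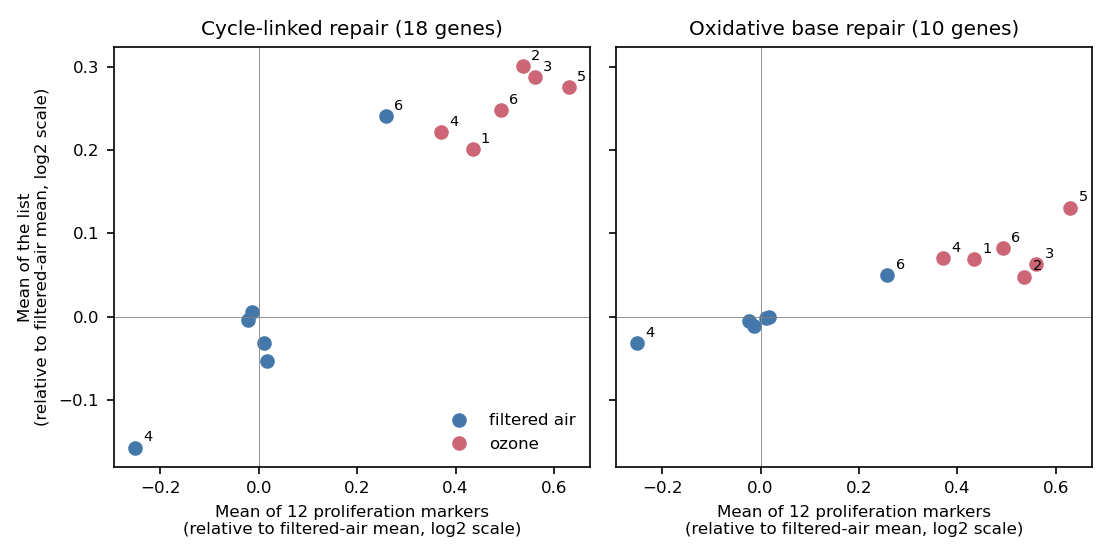
Each point is 1 mouse, placed by its mean over 12 proliferation markers (x axis) and its mean over the 18 cycle-linked genes (left y axis) or the 10 oxidative base repair genes (right), all on the variance-stabilized log2 scale relative to the filtered-air mean; ozone mice and filtered-air mice 4 and 6 are numbered. Filtered-air mouse 6, at 0.26 on the marker mean, lies left of all ozone mice (0.37 to 0.63) but within their range on the cycle-linked mean (0.24 against 0.20 to 0.30), and the oxidative means of all 12 mice stay between -0.032 and 0.13.

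Factors that regulate cycle genes gave 4 calls of 7. E2f8 stood at 0.43 (adjusted p = 0.00866, limma), Mybl2 at 0.38 (0.00936), E2f2 at 0.32 (0.0144) and Foxm1 at 0.48 (0.0306). Omission of 1 mouse ended the Foxm1 call in 7 of 12 cases, and so did the fits without a filter (adjusted p = 0.0515, limma), with a variance trend (0.0594) and with robust variance (0.0502). With quantile normalization all 4 calls were lost (E2f8 0.0864, Mybl2 0.103, E2f2 0.144 and Foxm1 0.286 as adjusted p in limma). E2f1, the best known activator of the family, stood at 0.062 (0.605). Since E2F factors bind the start of many replication genes, the promoters of the 41 genes were searched, in the RefSeq sequences of build GRCm38.p6, from 250 bases before to 50 bases after the gene start. Of the 41 genes, 35 had an entry. An E2F motif was counted as TTTCCCGC, TTTCGCGC, TTTGCCGC or TTTGGCGC on either strand. It was present in 7 of 35 members, against 626 of all 27025 promoters of this length (2.32%). The 7 were Brca2, Bard1, Fancg, Msh6, Nthl1, Chek2 and Clspn. Among the 10 genes called higher 3 had it, and among the 24 uncalled members with an entry 4 had it (16.7%). Within the 150 bases before the start it was in 2 of 35 members (5.71%), 0 of the 10 called higher and 340 of the 27025 promoters. The Chek2 match crosses the edge of that window, and those of Bard1 and Clspn lie outside it. The CCAAT letters that NF-Y binds, on either strand, were in 23 of 35 members (65.7%) and in 37.9% of all promoters, with 70.0% of the called and 66.7% of the uncalled. Within the 150 bases before the start they were in 7 of the 10 called higher (70.0%), 9 of the 24 uncalled (37.5%) and 25.3% of all promoters. The cell cycle homology letters TTTGAA or TTCGAA, on either strand, were in 11.4% of members, 50.0% of 10 proliferation markers and 19.4% of all promoters. No overlap between these motifs was removed. A match describes letters and is not a binding site.

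Shown are the promoters of the 3 called genes with an E2F match, and of Nthl1, which has one while its difference was 0.0069. Each is written 5′ to 3′ on the strand of the gene, with E2F and cell cycle homology matches in capitals. The E2F match begins 209 bases before the start in Bard1, 152 before it in Chek2, 132 before it in Nthl1 and 21 after it in Clspn. The capitals nearest the 5′ end of Bard1 are a cell cycle homology match.
Bard1, chr1:71102923-71103222, minus strand: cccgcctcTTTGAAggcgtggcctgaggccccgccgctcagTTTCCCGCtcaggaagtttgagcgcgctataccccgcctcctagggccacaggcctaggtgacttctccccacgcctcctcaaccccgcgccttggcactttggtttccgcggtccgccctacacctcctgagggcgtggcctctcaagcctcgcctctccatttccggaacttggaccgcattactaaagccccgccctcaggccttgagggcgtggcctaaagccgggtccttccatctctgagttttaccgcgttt
Chek2, chr5:110839733-110840032, plus strand: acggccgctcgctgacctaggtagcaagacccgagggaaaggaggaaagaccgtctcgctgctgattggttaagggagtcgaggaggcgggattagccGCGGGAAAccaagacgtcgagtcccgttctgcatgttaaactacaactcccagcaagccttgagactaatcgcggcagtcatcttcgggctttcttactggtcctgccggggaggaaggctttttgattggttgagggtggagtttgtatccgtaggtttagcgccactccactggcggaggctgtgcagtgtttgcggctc
Clspn, chr4:126556730-126557029, plus strand: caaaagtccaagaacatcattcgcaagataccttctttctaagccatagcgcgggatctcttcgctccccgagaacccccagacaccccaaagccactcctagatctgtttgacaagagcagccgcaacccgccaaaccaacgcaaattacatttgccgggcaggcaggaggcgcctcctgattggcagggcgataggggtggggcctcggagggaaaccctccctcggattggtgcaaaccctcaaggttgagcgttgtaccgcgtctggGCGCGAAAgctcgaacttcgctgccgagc
Nthl1, chr17:24632432-24632731, plus strand: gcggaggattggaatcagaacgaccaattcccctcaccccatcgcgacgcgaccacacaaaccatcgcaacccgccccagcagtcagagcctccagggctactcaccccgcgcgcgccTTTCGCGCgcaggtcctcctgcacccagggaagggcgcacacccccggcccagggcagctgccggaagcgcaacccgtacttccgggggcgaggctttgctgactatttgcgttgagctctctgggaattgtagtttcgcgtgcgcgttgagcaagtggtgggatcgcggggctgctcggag

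Other genes of the same pathways were taken from lists by role. For comparison, 4.25% of all genes tested were called and 48% had a difference above 0. Of 17 genes for end resection, replication protein A and recombination partners, 17 had differences above 0 and 1 was called, Eme1, a subunit of a nuclease that resolves joined strands, at 0.22 (adjusted p = 0.0113, limma). Of 9 further Fanconi genes 0 were called, and Ube2t, the ubiquitin-conjugating enzyme of the pathway, was nearest at 0.20 (adjusted p = 0.0996, limma). In end joining, which glues broken ends without a template and works through the whole cycle, 1 of 7 was called. It was Polq, the polymerase of the alternative route that uses short matches, at 0.29 (adjusted p = 0.0281, limma). Among 14 further base excision and oxidized nucleotide genes 2 were called, and both also serve the lagging strand in replication: the ligase Lig1 at 0.42 (adjusted p = 0.00209, limma) and the flap nuclease Fen1 at 0.27 (0.00620). The median of those 14 was 0.030. Of 13 further checkpoint genes 4 were called, H2ax, the histone marked at breaks, at 0.25 (adjusted p = 0.0106, limma), Wee1, a kinase that restrains Cdk1, at 0.30 (0.0184), Timeless, a fork protection factor, at 0.36 (0.0225), and Topbp1, an activator of Atr, at 0.28 (0.0340). Of the 12 single-mouse omissions, 10 lost the Topbp1 call, 6 the Polq call, 3 the Timeless call and 2 the Wee1 call. Quantile normalization ended the calls of Eme1 (adjusted p = 0.0666, limma), H2ax (0.0843), Timeless (0.126), Polq (0.135), Wee1 (0.139) and Topbp1 (0.187).

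The cycle-linked median was 0.28 in batch 1 and 0.27 in batch 2, and the oxidative median 0.090 and 0.082. Of the 41 members 36 had the same sign in both, as did 12509 of the 19633 genes tested. Brca1 stood at 0.42 and 0.48, Ung at 0.38 and 0.37, and Brip1 at 0.48 and 0.25 in batches 1 and 2. The interaction with batch was called in 0 of 41 members and in 0% of all genes by limma, and before adjustment 0 members and 2.6% of all genes reached 0.05. With 3 mice per group, batch 1 alone called 4 members higher and 90 genes of all tested, and batch 2 alone called 0 of either.

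**Figure D5:**
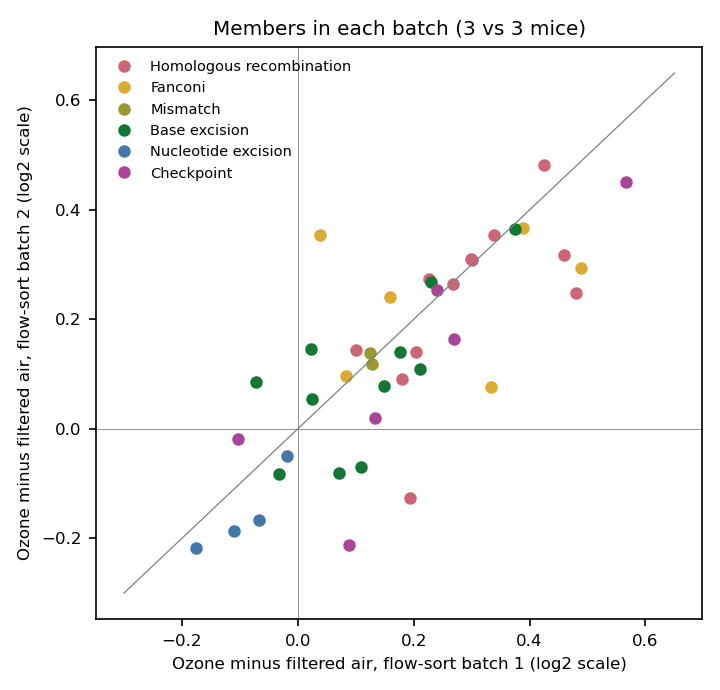
Each point is 1 of the 41 genes, placed by its ozone minus filtered-air difference in flow-sort batch 1 (x axis) and batch 2 (y axis), 3 mice per group in each, on the variance-stabilized log2 scale; colours are pathways and the diagonal marks equal differences. All but 5 of the 41 genes have the same sign in both batches, as do 12509 of all 19633 genes tested. The 4 nucleotide excision genes lie in the lower left.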

How the data were processed

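The RNA of flow-sorted alveolar macrophages was measured in 12 mice, 6 per group. Per the labels' protocols, libraries were stranded mRNA libraries sequenced as paired-end reads. Per the submitters' processing notes, the tools include cutadapt, STAR 2.7.7a, Salmon 1.5.2, DESeq2 1.26.0 and limma 3.42.2 in R 3.6.0, and the build mm10, without their roles. The annotation and the use of strand in counting are not given in the sources used here. The deposited table holds log2-scale values that the authors variance-stabilized and corrected for batch, as its name states. In the table every gene has a filtered-air mean of 0 and no difference between batch means, both to the rounding of the values. Depth in reads is unknown, so no intervals for counting error are given.

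A lone mouse without reads in its batch is not recognized, because such mice were found by a shared minimum (tie tolerance 1e-07). Genes with at least 6 of 12 mice above it were kept, which left 19633 of the 25444 genes that were not constant and removed 5811. Differences were fitted over all kept genes by limma 3.58.1 (R 4.3.3), with the sort batch as covariate and no variance trend. Tests are two-sided, with Benjamini-Hochberg adjustment over all kept genes and a threshold of 0.05. The script was tested on simulated data. Replicates are separate mice.

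The members, the lists and the tests were chosen with earlier results of these data known. All 41 members are reported. The lowest, median and highest value of each group are given for called members and for all oxidative base repair genes. Of each other list the called genes are named, at most 5 by smallest p, or the 1 with the smallest p, and further genes named (E2f1, Cdkn1a, Ly6g) were chosen after their values were seen. Exon overlaps come from GENCODE and promoters from RefSeq. The alternatives were no filter or a stricter one, no batch covariate, a variance trend, robust variance, array weights, quantile normalization, RNA integrity or the proliferation mean as a covariate, each batch alone, a replicate block, and leaving out each mouse. Leaving out filtered-air mouse 4 and ozone mouse 4 together was chosen after seeing the data.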

Additional observations from a re-analysis of the deposited data

Results flagged for a closer look

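In 7 of 122 combinations of a gene and a group, 1 mouse lay far from the other 5 of its group by Dixon's criterion at the 95% level. Chance flags about 1 in 20, or 6.1 here. Filtered-air mouse 6 was the high value in 4 of them. It stood at 0.35 in Blm, 0.43 in Fancd2, 0.20 in Fanci and 0.16 in Parp1, relative to the filtered-air mean. Without it the differences were 0.21 in Blm (adjusted p = 0.00839, limma with Benjamini-Hochberg adjustment), 0.30 in Fancd2 (0.0260), 0.44 in Fanci (0.000358) and 0.19 in Parp1 (0.0238). Ozone mouse 1 was the low value of its group in Blm, at 0.020, and in Mybl2, at 0.15. Without it Blm differed by 0.16 (adjusted p = 0.294, limma) and Mybl2 by 0.43 (0.00407). Filtered-air mouse 5 was the high value in Mutyh, at 0.14, and without it Mutyh differed by 0.12 (adjusted p = 0.325, limma).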

How the results depend on the processing

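Counts of 41 members called by limma changed most with quantile normalization, with single batches and with the proliferation mean as a covariate. Called higher were 3 with quantile normalization (Rad54l, Fanci and Fancm, all cycle-linked), 4 in batch 1 alone (3 of them cycle-linked), 0 in batch 2 alone and 0 with the proliferation covariate, and 0 cycle-linked genes in these last cases. Over all genes tested the calls were 178 with quantile normalization, 90 and 0 in batches 1 and 2, and 16 with the proliferation covariate, against 834. Leaving out 1 mouse gave 7 to 17 called higher, 5 to 11 cycle-linked genes and 0 to 2 oxidative base repair genes. Called lower were 0 to 1 in those fits, 2 without the batch covariate (Xpc was added), and 0 with a variance trend, array weights, quantile normalization, the RNA integrity covariate, the replicate block, the proliferation covariate, either batch alone, or without filtered-air mouse 4 and ozone mouse 4. Among oxidative base repair genes, array weights called 1 (Parp1) and the replicate block 1 (Neil3). The cycle-linked median was -0.10 and the oxidative median -0.0095 with the proliferation covariate. Without single mice these medians ran from 0.20 to 0.32 and from 0.042 to 0.080. The cause of these changes was not tested, except that single batches and left-out mice leave fewer samples.

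The sign of some single differences turned. In batch 1 alone Nthl1 stood at -0.072, Polb at 0.071 and Atm at 0.088, and in batch 2 alone Xrcc3 at -0.13 and Apex1 at -0.069. Without filtered-air mouse 4 and ozone mouse 4, Atm stood at 0.0045. Over the fits without 1 mouse, Polb ran from -0.028 to 0.020, Apex1 from -0.0060 to 0.060, Nthl1 from -0.020 to 0.035 and Xrcc3 from -0.032 to 0.098. With the proliferation covariate, 22 of 41 members turned, and with it the values were Brca1 -0.11, Bard1 -0.13, Brip1 -0.079, Palb2 -0.098, Rad54b -0.37, Blm -0.25, Xrcc3 -0.30, Fanca -0.25, Fancb -0.12, Fancd2 -0.41, Fancg -0.20, Msh6 -0.17, Pms2 -0.045, Mutyh -0.0081, Neil1 -0.011, Neil3 -0.36, Xrcc1 -0.045, Xpa 0.070, Atm 0.047, Chek1 -0.084, Clspn -0.040 and Trp53 -0.039. Among other genes Ube2t stood at -0.17, Wee1 at -0.085, Topbp1 at -0.0071, E2f8 at -0.15 and Foxm1 at -0.35 in that fit, where 0 of the members had an adjusted p under 0.05 and 9 an unadjusted p under 0.05, as did 1640 of the 19633 genes tested.

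Replicate numbers run from 1 to 6 in both groups but name different animals. Deviations of same-numbered mice correlated between -0.0026 and 0.28, over 0.1 in 4 of 6 and not in all, and they were not treated as pairs. With the replicate block, 9 of the 11 member calls were kept, Brip1 (adjusted p = 0.0568, limma) and Ercc1 (0.0655) were lost and Neil3 (0.0458) was gained. Among the p53 targets Ccng1 was gained (0.0403). Of the 1025 member results under alternatives, 911 kept their direction and their side of the threshold, 63 kept the direction and lost the call, 15 gained one and 36 turned.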
